A study of Schizosaccharomyces pombe with 9 samples.

Results

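The genes described are 9 regulators and targets of the switch into meiosis in fission yeast, *Schizosaccharomyces pombe*, chosen by systematic ID from the 6988 genes of the count table: *mei2* (SPAC27D7.03c), *mei3* (SPBC119.04), *pat1* (SPBC19C2.05), *mmi1* (SPCC736.12c), *mei4* (SPBC32H8.11), *rec8* (SPBC29A10.14), *ssm4* (SPAC27D7.13c), *crs1* (SPBC2G2.09c) and *bqt2* (SPAC1002.06c). Poly(A)+ RNA was sequenced from 3 biological replicates each of *ecl123*Δ (h- *ecl1*Δ::hygMX *ecl2*Δ::natMX *ecl3*Δ::kanMX), *ecl3*Δ (h- *ecl3*Δ::kanMX) and WT (h-) cells. All were haploid vegetative cells in logarithmic growth at 30 °C in YES, a rich medium of yeast extract with supplements. In the mutants drug-resistance cassettes replaced the *ecl* ORFs, which encode small proteins that prolong chronological lifespan, and each mutant is a single strain. The comparisons ask whether the loss of *ecl3*, or of the whole *ecl* family, moved the RNAs that control meiosis in cells that were not in meiosis.

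Commitment to meiosis in *S. pombe* turns on Mei2, an RNA-binding protein that is required for premeiotic DNA synthesis and meiosis I. In vegetative cells the Pat1 kinase holds Mei2 inactive, and upon starvation of diploid cells Mei3 inhibits Pat1. A second block acts on RNA: the YTH-family protein Mmi1 binds meiotic transcripts through a sequence called the determinant of selective removal (DSR) and directs them to the nuclear exosome. In meiosis Mei2 and the noncoding RNA encoded by *sme2* sequester Mmi1, and the transcripts persist.

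The DSR is built of repeats of the core UNAAAC, which in the coding strand of DNA reads TNAAAC. The core occurred 10 times in the coding sequence of *mei4*, 11 times in *rec8*, 13 times in *ssm4* and 7 times in *crs1*, 4 transcripts known to be removed by Mmi1. The stretches below are those where the cores of these 4 coding sequences lie closest together, and they are shown because this repeat is the feature by which Mmi1 recognizes its targets. They were read 5′ to 3′ on the sense strand from RefSeq's ASM294v3 assembly, with each core in capitals.
mei4: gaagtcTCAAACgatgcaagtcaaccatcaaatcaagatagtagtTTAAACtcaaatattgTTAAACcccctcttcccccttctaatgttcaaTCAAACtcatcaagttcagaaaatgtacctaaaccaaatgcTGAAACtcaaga
rec8: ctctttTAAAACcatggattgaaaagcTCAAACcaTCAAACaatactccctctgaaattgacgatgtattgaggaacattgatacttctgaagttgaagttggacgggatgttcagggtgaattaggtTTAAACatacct
ssm4: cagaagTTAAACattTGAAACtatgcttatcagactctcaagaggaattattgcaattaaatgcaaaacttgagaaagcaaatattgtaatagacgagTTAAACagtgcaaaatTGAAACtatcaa
crs1: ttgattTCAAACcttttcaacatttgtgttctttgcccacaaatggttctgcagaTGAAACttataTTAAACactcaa
The stretch of *mei4* holds 5 cores, those of *rec8* and *ssm4* hold 4 each, and that of *crs1* holds 3. Counted from the first base of the start codon, they span bases 679 to 824 of *mei4*, 1046 to 1185 of *rec8*, 1412 to 1537 of *ssm4* and 770 to 847 of *crs1*. *mei2*, by contrast, holds a single core in 2253 coding bases, shown here with its flanks.
mei2: agtgaaTCAAACtcaatt

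Per kb of coding sequence the core occurred 7.75 times in *crs1*, 6.52 times in *rec8*, 6.46 times in *ssm4* and 6.44 times in *mei4*. The median of 5107 coding genes was 1.52 per kb, and no more than 1.25% of them reached the density of any of these 4 genes. The other members lay between 0.44 per kb in *mei2* and 2.83 per kb in *pat1*, with *mmi1* itself at 2.73, *bqt2* at 2.80 and *mei3* at 2.24. Of 7 further transcripts listed as Mmi1 targets, *mug9* had 12.8 cores per kb, and *mcp7*, *mcp5* and *mug8* had 7.90, 6.19 and 6.01. *tht2*, at 1.65 per kb, lay close to the median of all genes. A match to the core describes the sequence and does not show that Mmi1 binds there.

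**Figure D1:**
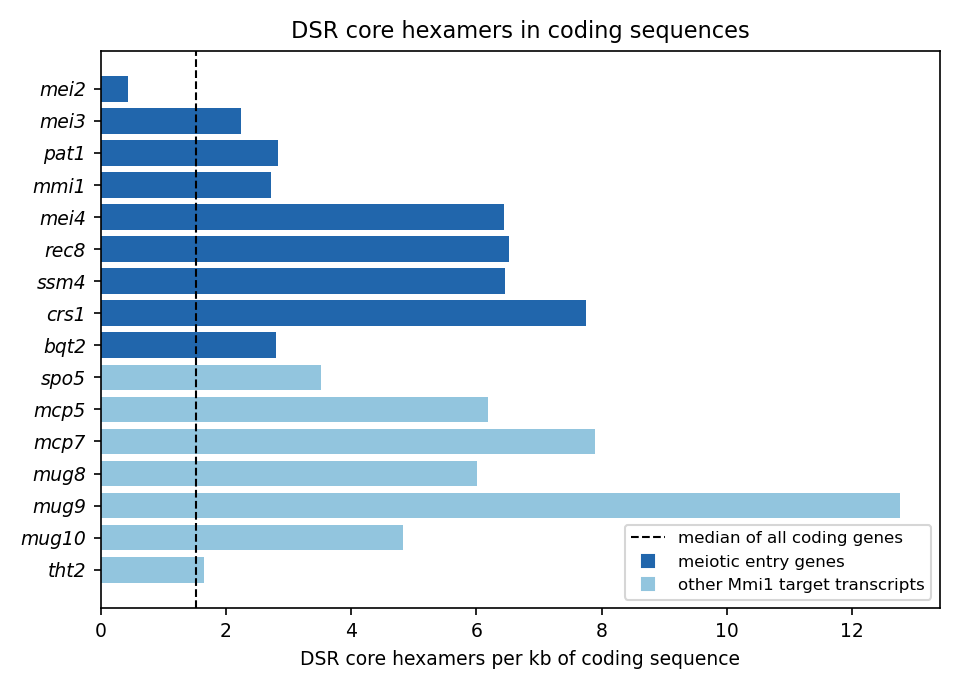
Number of DSR cores (TNAAAC, sense strand) per kb of coding sequence, one bar per gene, for the 9 meiotic entry genes and 7 other Mmi1 target transcripts. The dashed line is the median of 5107 coding genes, 1.52 per kb, and the bars of *mei4*, *rec8*, *ssm4* and *crs1* reach 6.44 to 7.75 per kb.

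The *mei2* promoter is known to be activated by Ste11, the HMG-box transcription factor of the mating programme, which binds the TR box. The 9-base TR box core TTCTTTGTT was searched on both strands from 250 bases before to 50 bases after the annotated mRNA start. It occurred 3 times in *mei2*, and 2.00% of 5107 promoters of that length hold it at least once, 0.0783% at least 3 times. The 2 cores before the start lie in the stretch from 170 to 120 bases upstream, both on the sense strand, in capitals here.
mei2 promoter: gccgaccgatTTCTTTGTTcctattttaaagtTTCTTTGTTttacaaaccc
The core occurred once in the promoter of *ste11* itself and in none of the other 8 members. The FLEX element bound by Mei4 (GTAAACA or GTAAATA, either strand) occurred 3 times in the promoter of *mei4* and once each in those of *mei2*, *mmi1* and *bqt2*. It is a common motif, found at least once in 29.3% of promoters and at least 3 times in 0.842%.

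The libraries held 23254907 to 34871124 counts. The 9 members together took 0.0108% to 0.0169% of the counts in *ecl123*Δ, 0.0150% to 0.0198% in *ecl3*Δ and 0.0160% to 0.0182% in WT. *ecl3* had 0, 0 and 1 reads in *ecl123*Δ, none in the 3 *ecl3*Δ libraries and 23, 15 and 42 in WT. Counts at the other 2 deleted genes were not lower: *ecl1* averaged 3070 ± 346 normalized counts in *ecl123*Δ and 459 ± 59.8 in WT, 6.70-fold higher (adjusted p = 3.6e-05 by edgeR), and *ecl2* averaged 2152 ± 137 in *ecl123*Δ and 1556 ± 132 in WT, a 1.38-fold level (adjusted p = 0.125 by edgeR; SD, n = 3 each). Only the ORFs were replaced, so counts over the whole annotated genes do not check those deletions, and where the reads lie within the genes was not tested. *ecl123*Δ replicate 3 stood apart from its 2 replicates, with a mean chi-square per gene of 220 and 249 against them, where the 7 other pairs of replicates gave 7.79 to 87.9. The h- label names the mating type, and M-cell markers had reads, apart from *mat1-Mc*, listed with 0 reads in every library. The 6 M-cell markers summed to 2147 to 2391 normalized counts in *ecl123*Δ, 3413 to 6675 in *ecl3*Δ and 5620 to 6107 in WT. The 2 matched P-cell markers, *map2* and *map3*, summed to 388 to 540 in *ecl123*Δ, 365 to 508 in *ecl3*Δ and 347 to 423 in WT, with neither at 0. In WT the M-cell markers *mam1*, *mfm2* and *mam2* averaged 2721, 2294 and 680 normalized counts, and *mfm1* and *mfm3* 107 and 46.6. *map3* and *map2* averaged 250 and 129 there, so these markers alone do not settle the mating type.

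Levels were first ordered within WT, as CPM (counts scaled to a common library size) per kb of annotated exon. *mmi1* was highest at 23.2 ± 2.09 CPM per kb, followed by *mei2* at 16.7 and *pat1* at 11.0 (n = 3). The median coding gene stood at 36.0 CPM per kb, so even these regulators, which vegetative cells are known to express, lay below it. The DSR-bearing transcripts came next, *ssm4* at 2.93, *crs1* at 2.50, *mei4* at 2.50 and *rec8* at 1.51 CPM per kb, and between 4.35% and 6.09% of coding genes were lower than each of them. *bqt2* followed at 1.08 CPM per kb. *mei3* stood at 0.161 CPM per kb, with 1.66% of coding genes below it. Along this order the 3 WT libraries of neighbouring genes overlapped only between *ssm4* and *crs1* and between *crs1* and *mei4*. Every other neighbouring pair was separated in all 3 libraries.

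The normalized read counts that follow are counts scaled by TMM, a correction for library composition, to the mean library size. Of the 9 genes, 8 passed the filter on low counts and were tested, and *mei3* did not pass. None of the 8 was called by edgeR's quasi-likelihood test at a Benjamini-Hochberg adjusted p of 0.05 over all 6257 genes tested, in any of the 3 comparisons. In *ecl123*Δ against WT, 1.18% of all genes were called, 0.575% lower and 0.607% higher. In *ecl3*Δ against WT the share was 0%, and in *ecl123*Δ against *ecl3*Δ it was 0.0639%, so 0 of 8 lay near the background in each comparison. The deleted *ecl3* itself was not called in *ecl3*Δ against WT, at a log2 fold change of -7.70 (adjusted p = 0.453 by edgeR). The absence of calls in that comparison therefore does not show that the members were unchanged. At an unadjusted p under 0.05, 1 of the 8 was lower in *ecl123*Δ than in WT and none higher, where 9.70% and 10.2% of all genes were. For *ecl3*Δ against WT the count was 0 in both directions, where 0.767% of all genes were lower and 0.847% higher. Between the mutants 2 were lower and 1 higher in *ecl123*Δ, where 4.54% and 6.15% of all genes were. DESeq2 called 1 of the members, *mei2*, in *ecl123*Δ against WT, where it called 265 of 6988 genes lower and 286 higher. It called no member in the other comparisons. There it called 2 genes lower and 0 higher in *ecl3*Δ against WT, and 65 lower and 112 higher in *ecl123*Δ against *ecl3*Δ.

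**Figure D2:**
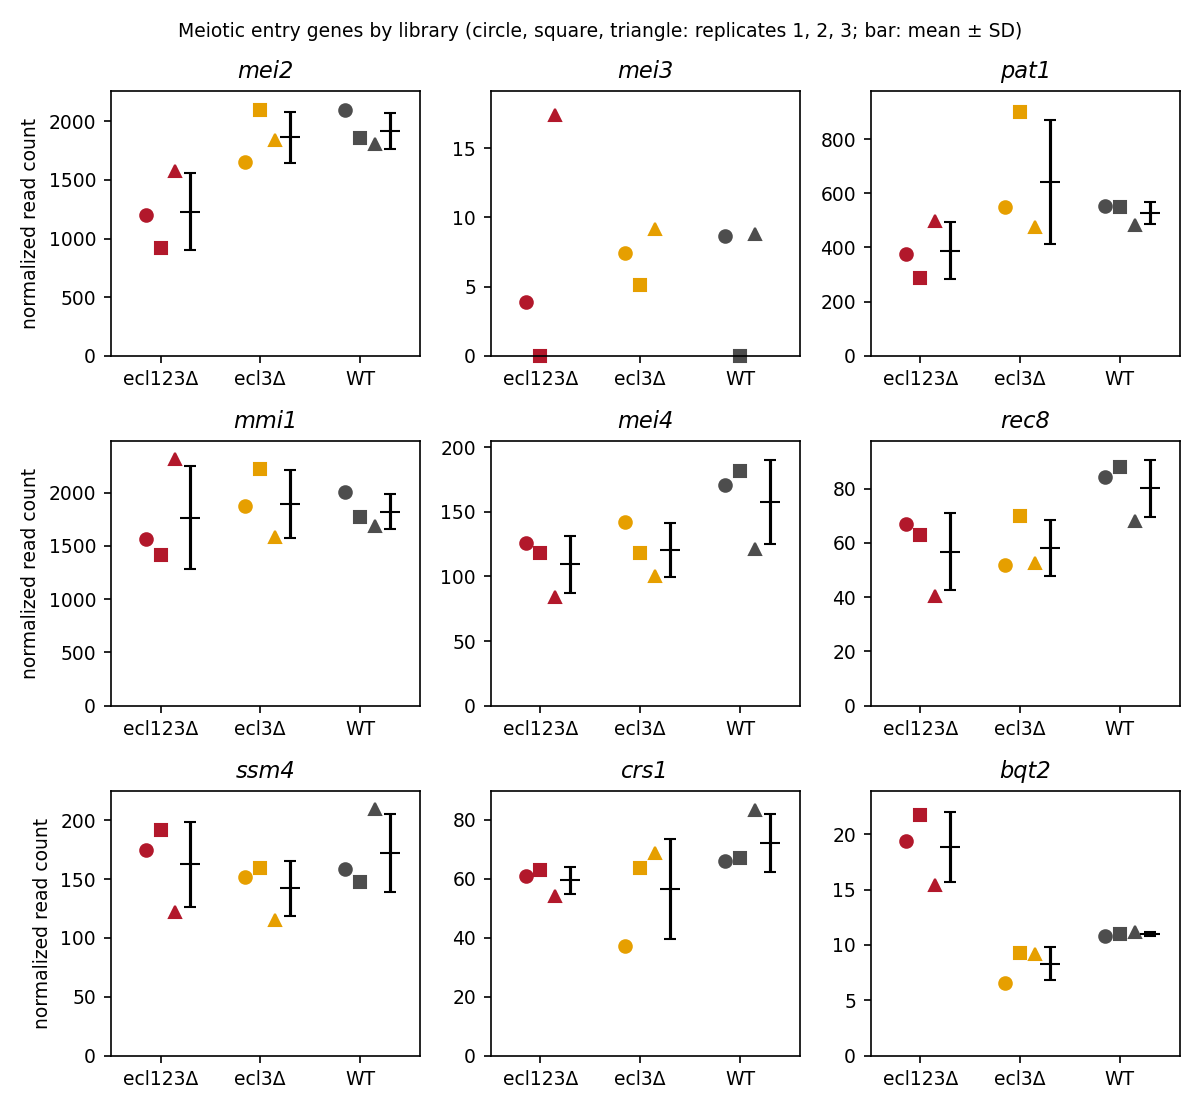
Normalized read counts of the 9 genes in each library, by strain, with linear axes from 0. Symbols mark replicates 1, 2 and 3 and black bars the mean ± SD (n = 3), left out for *mei3*. The 3 *ecl123*Δ libraries of *mei2* sit between 916 and 1574, below all *ecl3*Δ and WT libraries.

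*mei2*, the master regulator, had the smallest p of the members in *ecl123*Δ against WT. Its normalized read counts were 1201, 916 and 1574 in *ecl123*Δ, 1653, 2092 and 1841 in *ecl3*Δ and 2096, 1859 and 1806 in WT. All 3 *ecl123*Δ libraries lay below the other 6, and the *ecl3*Δ and WT libraries overlapped. The means were 1230 ± 330 in *ecl123*Δ, 1862 ± 221 in *ecl3*Δ and 1920 ± 154 in WT (SD, n = 3). The log2 fold change of *ecl123*Δ over WT was -0.64 ± 0.17 (SE), a 0.641-fold level, with an adjusted p of 0.0952 by edgeR. The difference thus did not pass over all genes, although its unadjusted 95% interval of -1.03 to -0.25 lay below 0. Without *ecl123*Δ replicate 3, the highest of the 3, the fold change was -0.86 and the adjusted p by edgeR 0.0340, and DESeq2 gave an adjusted p of 0.0188 with all libraries. Over 15 alternatives the adjusted p of edgeR and DESeq2 ran from 0.0188 to 0.266, and 2 of them passed 0.05. With each library left out in turn, the log2 fold change ran from -0.86 to -0.47. Without *ecl123*Δ replicate 3, edgeR called 61 of all genes lower and 96 higher. Against *ecl3*Δ the log2 fold change of *ecl123*Δ was -0.60 ± 0.17 (adjusted p = 0.239 by edgeR), and 0.0491 without *ecl123*Δ replicate 3. For *ecl3*Δ over WT it was -0.045 ± 0.17, with an interval of -0.43 to 0.34.

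*ste11*, the activator of *mei2*, had normalized read counts of 531, 496 and 526 in *ecl123*Δ, 976, 3118 and 993 in *ecl3*Δ and 2537, 2060 and 1894 in WT. It fell in *ecl123*Δ by 2.06 on the log2 scale against WT (adjusted p = 0.0455 by edgeR). That call was lost without any 1 of the WT or *ecl123*Δ libraries or without *ecl3*Δ replicate 3, with adjusted p of 0.0591 to 0.180, while the fold change stayed between -2.15 and -1.93. In those fits edgeR called 0 to 61 of all genes lower and 2 to 96 higher, beside 36 and 38 with all libraries. In *ecl3*Δ replicate 2, the library with the most *ste11* reads, *mei2* had 2092 normalized counts, more than in the other 2 *ecl3*Δ libraries. Those 2, with *ste11* at 976 and 993, below every WT library, had *mei2* at 1653 and 1841. Within *ecl123*Δ, *mei2* ran from 916 to 1574 while *ste11* stayed between 496 and 531. The spread of *mei2* over the 9 libraries was narrower than that of *ste11*. Since these are bulk cultures, fewer cells expressing a gene and less RNA per cell cannot be told apart.

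**Figure D3:**
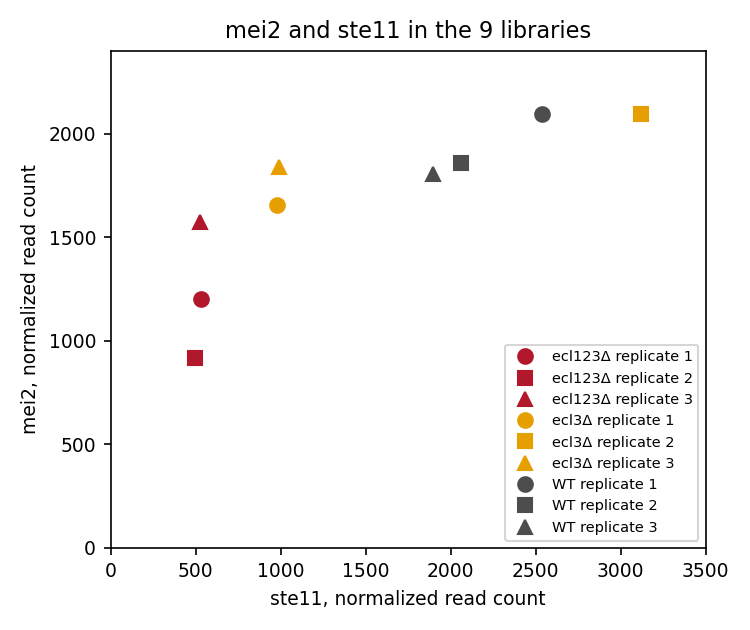
Normalized read counts of *mei2* (vertical axis) against *ste11* (horizontal axis), one point per library, coloured by strain and shaped by replicate. The *ecl123*Δ points lie at 496 to 531 for *ste11* and 916 to 1574 for *mei2*, and *ecl3*Δ replicate 2 lies beyond the WT points, at 3118 for *ste11*.

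*pat1*, the kinase that restrains Mei2, had normalized read counts of 377, 288 and 498 in *ecl123*Δ, 548, 902 and 474 in *ecl3*Δ and 553, 550 and 482 in WT. The *ecl123*Δ and WT libraries overlapped through *ecl123*Δ replicate 3, and *ecl3*Δ replicate 2 was far above its 2 replicates. The log2 fold change of *ecl123*Δ was -0.45 ± 0.26 against WT (adjusted p = 0.382 by edgeR) and -0.73 ± 0.26 against *ecl3*Δ (adjusted p = 0.335 by edgeR). That of *ecl3*Δ over WT was 0.28 ± 0.25, and it became -0.046 without *ecl3*Δ replicate 2. The kinase and its substrate had their lowest counts in the same library, *ecl123*Δ replicate 2, and both were higher in *ecl3*Δ replicate 2 than in the other *ecl3*Δ libraries.

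*mei3*, whose product inactivates Pat1, was close to absent. Its raw counts were 4, 0 and 18 in *ecl123*Δ, 9, 5 and 8 in *ecl3*Δ and 8, 0 and 11 in WT, which sum to 22, 22 and 19 reads. The ratio of *ecl123*Δ to WT was 1.18 with an exact 95% interval of 0.609 to 2.30, and that of *ecl3*Δ to WT 1.13 with an interval of 0.584 to 2.21. These intervals cover counting error only. A count of 0 allowed up to 0.121 CPM in *ecl123*Δ replicate 2 and 0.129 CPM in WT replicate 2. A difference within these intervals was not detectable at this depth.

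*mmi1* had normalized read counts of 1567, 1411 and 2319 in *ecl123*Δ, 1874, 2225 and 1585 in *ecl3*Δ and 2002, 1775 and 1684 in WT. The highest and the lowest of the 9 values were both *ecl123*Δ libraries. The log2 fold change of *ecl123*Δ over WT was -0.043 with an interval of -0.46 to 0.37, and its sign turned when any of 3 single libraries was left out. That of *ecl3*Δ over WT was 0.058 with an interval of -0.36 to 0.47. As a fold, the 95% interval of *mmi1* in *ecl123*Δ ran from 0.728 to 1.29.

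The RNAs that Mmi1 removes follow. *mei4* encodes the forkhead transcription factor of middle meiosis. It had normalized read counts of 126, 118 and 84.1 in *ecl123*Δ, 142, 118 and 101 in *ecl3*Δ and 171, 182 and 121 in WT. The lowest WT library, replicate 3, fell inside the range of *ecl123*Δ, and the log2 fold change was -0.53 ± 0.24 (adjusted p = 0.256 by edgeR). For *ecl3*Δ over WT it was -0.38 ± 0.24. The *mei4* transcript overlaps that of *cdk9* by 115 bases on the same strand, and *cdk9* averaged 3274 ± 190 normalized counts in *ecl123*Δ and 3307 ± 45.5 in WT (SD, n = 3 each), many times those of *mei4*. The log2 fold change of *cdk9* was -0.015 ± 0.070 in *ecl123*Δ over WT.

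*rec8*, which encodes the meiotic cohesin kleisin subunit and has the *mei4*-like core density shown above, gave 66.8, 63.0 and 40.6 normalized counts in *ecl123*Δ, 51.8, 69.9 and 52.6 in *ecl3*Δ and 84.3, 87.8 and 68.1 in WT. The *ecl123*Δ libraries all lay below the WT libraries, by a narrow margin between 66.8 and 68.1. The log2 fold change was -0.49 ± 0.26 in *ecl123*Δ (adjusted p = 0.327 by edgeR) and -0.46 ± 0.26 in *ecl3*Δ (adjusted p = 1.00 by edgeR). Both comparisons use the same WT libraries. Between the mutants the log2 fold change was -0.033 with an interval of -0.61 to 0.55.

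*ssm4* encodes a dynactin subunit that acts in the nuclear movements of meiotic prophase. Its normalized read counts were 174, 191 and 122 in *ecl123*Δ, 151, 159 and 115 in *ecl3*Δ and 159, 148 and 210 in WT. The strains overlapped throughout, and the log2 fold change was -0.089 ± 0.23 in *ecl123*Δ and -0.28 ± 0.23 in *ecl3*Δ over WT. *crs1*, a meiotic cyclin, had 61.0, 63.0 and 54.1 in *ecl123*Δ, 37.0, 63.7 and 68.6 in *ecl3*Δ and 65.9, 67.1 and 83.3 in WT. Its *ecl123*Δ libraries lay just under the WT libraries, with a log2 fold change of -0.29 ± 0.26 (adjusted p = 0.624 by edgeR), and *ecl3*Δ over WT gave -0.37 ± 0.27. The *crs1* transcript overlaps *ade9* by 444 bases on the opposite strand, and *ade9*, a folate enzyme gene, had 7069, 6821 and 10051 normalized counts in *ecl123*Δ and 6435, 6017 and 5850 in WT. The libraries were strand-specific, but the strand setting of the counting is not given in the sources used here, so the part of *ade9* reads in the *crs1* counts was not tested. The 8 other members overlap annotated antisense noncoding RNAs that were not analysed here, and the same limit holds for them.

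*bqt2*, whose product helps to gather telomeres into the meiotic bouquet, was the one gene of the 8 tested with an estimate above 0 in *ecl123*Δ over WT. Its raw counts were 20, 19 and 16 in *ecl123*Δ, 8, 9 and 8 in *ecl3*Δ and 10, 9 and 14 in WT. In normalized counts these were 19.4, 21.8 and 15.5 in *ecl123*Δ, 6.58, 9.25 and 9.13 in *ecl3*Δ and 10.8, 11.0 and 11.2 in WT, with all *ecl123*Δ libraries above the other 6. The log2 fold change was 0.77 ± 0.35 against WT (adjusted p = 0.257 by edgeR) and 1.18 ± 0.36 against *ecl3*Δ (adjusted p = 0.249 by edgeR). That of *ecl3*Δ over WT was -0.41 ± 0.38. The *bqt2* coding sequence, which is all that is annotated of its transcript, carries a single DSR core. The counts of *bqt2* are the lowest of the 8 genes tested. Its partner *bqt1* averaged 60.4 ± 19.2 normalized counts in *ecl123*Δ and 48.6 ± 12.6 in WT (SD, n = 3 each), with a log2 fold change of 0.32 ± 0.32 over WT.

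**Figure D4:**
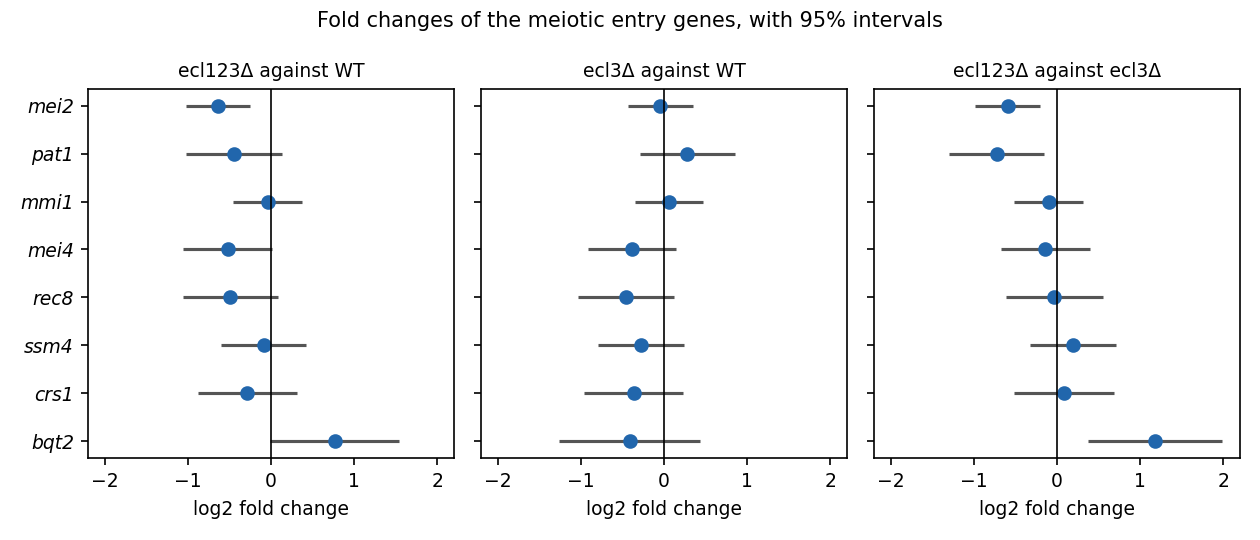
Log2 fold changes of the 8 genes tested (points) with unadjusted 95% intervals (lines), for each mutant over WT (left and middle) and for *ecl123*Δ over *ecl3*Δ (right). In *ecl123*Δ against WT the points run from -0.64 for *mei2* to 0.77 for *bqt2*, and only the interval of *mei2* excludes 0.

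Across the 8 genes tested, 7 estimates were below 0 in *ecl123*Δ against WT, with a median log2 fold change of -0.37 beside 0.00 over all genes. In 3 of the 8 the *ecl123*Δ libraries lay wholly below the WT libraries (*mei2*, *rec8* and *crs1*) and in 1 wholly above (*bqt2*), where 13.6% and 12.4% of all genes did so. In *ecl3*Δ against WT the median was -0.32, and 1 gene, *bqt2*, had no overlap, lower in *ecl3*Δ, where 5.50% of all genes were lower and 4.03% higher without overlap. Between the mutants the median was -0.067. *mei2* was lower without overlap and *bqt2* higher without overlap in *ecl123*Δ, where 4.22% and 7.42% of all genes were. Summed after the single values had been seen, the counts of *mei4*, *rec8*, *ssm4* and *crs1* were 428, 435 and 301 in *ecl123*Δ, 382, 411 and 337 in *ecl3*Δ and 480, 484 and 482 in WT. In this sum every mutant library was below every WT library, but no test was made of it and the share of all genes so separated was not computed. The lowest sum, 301, was that of *ecl123*Δ replicate 3, which stood apart from its replicates as given above. Taken singly, *mei4* and *ssm4* overlapped WT in *ecl123*Δ, and each of these genes overlapped WT in *ecl3*Δ. The even WT sums hide a WT replicate 3 with the lowest *mei4* of the WT libraries, 121, and the highest *ssm4*, 210.

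Of 7 further Mmi1 target transcripts, 1 was called lower and 0 higher in *ecl123*Δ against WT, where 0.575% and 0.607% of all genes were. The list median was -0.38, beside 0.00 over all genes, and 6 of 7 were below 0. The gene called was *mug8*, a meiotically upregulated gene with 13 cores in its coding sequence. It had 558, 629 and 520 normalized counts in *ecl123*Δ, 674, 1056 and 866 in *ecl3*Δ and 1008, 1178 and 1126 in WT. *mug8* fell by 0.96 ± 0.16 on the log2 scale (adjusted p = 0.0340 by edgeR). The call was lost without any 1 WT library, without *ecl3*Δ replicate 3 or without *ecl123*Δ replicate 1, with adjusted p of 0.0738 to 0.180, while the fold change stayed between -1.03 and -0.90. Over all genes, edgeR called 0 to 1 lower and 2 higher in each of those fits, beside 36 and 38 with all libraries. Chosen after their values were seen, *mcp5* (named *num1* in RefSeq), which encodes the cortical anchor of dynein in meiosis, gave -0.93 ± 0.20 (adjusted p = 0.0588 by edgeR) and *mcp7*, a recombination factor, gave -0.49 ± 0.12 (adjusted p = 0.0867 by edgeR). The remaining 4 did not pass the test either: *mug9*, with the highest core density of the list, gave -0.25 ± 0.20, *spo5* gave -0.20 ± 0.25, *mug10* gave -0.38 ± 0.31 and *tht2* gave 0.075 ± 0.19. The 7 transcripts summed to 1577 to 1903 normalized counts in *ecl123*Δ, 1979 to 2657 in *ecl3*Δ and 2579 to 2841 in WT. The largest parts of this sum were *mug8*, which averaged 569 in *ecl123*Δ and 1104 in WT, and *mcp7*, at 695 and 973. The sum thus mostly repeats genes already named. The M-cell marker sums given above were lower in *ecl123*Δ in the same way. Of 5 markers tested 4 were called lower, beside 0.575% of all genes, and their part in the result was not tested.

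The machinery that carries out the removal of these RNAs was examined next. Of its 12 genes, among them the Mmi1 partner *erh1*, the zinc-finger scaffold *red1* and the exosome nucleases *rrp6* and *dis3*, none was called in *ecl123*Δ against WT, with a median of -0.022. At an unadjusted p under 0.05, *erh1* was lower, at -0.32 ± 0.097 (adjusted p = 0.121 by edgeR), and *dis3* was higher, at 0.35 ± 0.13 (adjusted p = 0.178 by edgeR). Over all genes 9.70% were lower and 10.2% higher by that rule. *dis3* had 4558, 4518 and 6240 normalized counts in *ecl123*Δ and 4238, 3850 and 3908 in WT. Its highest value was in *ecl123*Δ replicate 3, and its estimate fell as low as 0.18 with a library left out. Among 8 regulators and partners of Mei2, only *ste11* was called in *ecl123*Δ against WT, where 1.18% of all genes were. The noncoding RNA *sme2* (SPNCRNA.103), the Mei2 partner, had 164, 83.6 and 62.8 normalized counts in *ecl123*Δ, 77.3, 166 and 83.4 in *ecl3*Δ and 161, 200 and 196 in WT. With *ecl123*Δ replicate 1 inside the WT range, its log2 fold change was -0.84 ± 0.38 (adjusted p = 0.261 by edgeR). The value of *sme2* was added after it was seen. The 14-3-3 proteins that bind phosphorylated Mei2, encoded by *rad24* and *rad25*, gave -0.031 ± 0.11 and -0.14 ± 0.087.

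The genes that act after meiotic entry were at 0 calls each in *ecl123*Δ against WT. Of 16 cohesin and recombination genes tested, 2 were lower and 1 higher at an unadjusted p under 0.05, with a list median of -0.14. Over all genes 9.70% were lower and 10.2% higher by that rule, so the counts of this list and of the bouquet list lay near the background. *rec10*, a linear element protein gene, gave -0.76 ± 0.24 (adjusted p = 0.123 by edgeR) and *rec11*, which encodes the arm-specific partner of Rec8, gave 0.43 ± 0.18 (adjusted p = 0.230 by edgeR). Of 13 bouquet and horsetail genes, 1 was lower at an unadjusted p under 0.05, *mcp6*, at -0.91 ± 0.26 (adjusted p = 0.103 by edgeR), and the list median was -0.024. *bqt4*, which tethers telomeres to the nuclear envelope, gave -0.13 ± 0.085. Of 12 middle meiosis and spore genes tested, 4 were lower and 0 higher at an unadjusted p under 0.05, with a list median of -0.19. *cuf2*, a copper-fist protein of middle meiosis, gave -2.11 ± 0.56 (adjusted p = 0.0923 by edgeR) on raw counts of 2, 5 and 10 in *ecl123*Δ, 20, 20 and 7 in *ecl3*Δ and 16, 22 and 39 in WT. *meu10*, a gene of spore wall formation, gave -1.02 ± 0.31 (adjusted p = 0.113 by edgeR). DESeq2 called 1 cohesin and recombination gene, 1 bouquet gene, 3 middle meiosis genes and 3 of the Mmi1 targets in the same comparison. Of all 6988 genes it called 265 lower and 286 higher there, many more than edgeR. In the comparisons of *ecl3*Δ with WT and of the mutants with each other, edgeR called no gene of these 6 lists, where 0% and 0.0639% of all genes were called. At an unadjusted p under 0.05, 1 list gene passed in *ecl3*Δ against WT, an Mmi1 target that was lower, where 0.767% of all genes were. Between the mutants 2 of the 7 other Mmi1 targets were lower in *ecl123*Δ, where 4.54% of all genes were. Each other list had at most 1 lower, and 1 cohesin and recombination gene was higher, where 6.15% of all genes were.

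The genes most like *mei2* over the 9 libraries, by Pearson's r of log2 CPM among 4998 coding genes, were SPBC56F2.05c (r = 0.94), *ede1* (0.93) and *hhp2* (0.93). For *mei4* they were SPAC17A2.11 (0.87), *lsm4* (0.85) and *gid4* (0.85), for *rec8* *acp1*, *atg1803* and *pgl1* (0.94 each) and for *ssm4* *mug124* (0.92), *pwi1* (0.85) and *arv1* (0.84). Among the members themselves the likeness was greatest between *mei2* and *pat1* (0.86) and between *mei4* and *rec8* (0.84). These values describe libraries that share strain and depth, and the best of many genes is high by selection.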

How the data were processed

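Poly(A)+ RNA was sequenced from 9 libraries, 3 biological replicates of each strain. The authors prepared strand-specific libraries, mapped paired-end reads to ASM294v2 with HISAT2 2.1.0 and counted reads per gene with HTSeq 0.10.0, and the deposited table holds these counts as whole numbers, not normalized, for 6988 genes. Every count column belonged to a library, and 0 were set aside. The deposited DESeq2 tables of each mutant against WT (mean counts, fold changes, p-values) were not used.

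Genes were filtered with filterByExpr (6257 kept), normalized by TMM and tested with edgeR 4.0.16 (quasi-likelihood, 1 fit of all libraries, strain as the only term) in R 4.3.3, with Benjamini-Hochberg adjustment over all genes and a call at 0.05. DESeq2 1.42.0, other size factors, no filter, only the strains compared, the replicate number as a block, leaving out each library and the fold and count limits of the study were alternatives. The functions were tested on simulated counts. Permuting 3 against 3 libraries exactly gives a smallest two-sided p of 0.1, so model-based p-values are used. The p-values measure the spread between these cultures.

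Names, exon lengths and sequences came from RefSeq ASM294v3, by systematic ID (6836 of 6988 matched). That build differs from the one used for mapping, so no genome coordinates are given, and positions within a coding sequence or before an mRNA start are those of ASM294v3. The members, gene lists and tests were chosen with earlier results of these data known. Named were all members, of each list the genes called or otherwise the 2 of smallest p, overlapping genes, *ste11*, the *ecl* genes and the 3 coding genes most like *mei2*, *mei4*, *rec8* and *ssm4*. Other names were added after their values were seen. Of 80 list entries, 78 matched a row.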

Additional observations from a re-analysis of the deposited data

How the results depend on the processing

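Of the 8 members tested, 6 kept their direction in *ecl123*Δ against WT under all 15 alternatives, 5 in *ecl3*Δ against WT and 4 between the mutants, and each of the reversals came from leaving out 1 library. With each library left out in turn, the log2 fold change in *ecl123*Δ against WT ran from -0.29 to 0.095 for *mmi1* and from -0.22 to 0.083 for *ssm4*. In *ecl3*Δ against WT it ran from -0.14 to 0.034 for *mei2*, from -0.046 to 0.46 for *pat1* and from -0.072 to 0.17 for *mmi1*. In *ecl123*Δ against *ecl3*Δ it ran from -0.26 to 0.0061 for *mei4*, from -0.36 to 0.037 for *mmi1*, from -0.17 to 0.15 for *rec8* and from -0.16 to 0.25 for *crs1*. The number of members called in *ecl123*Δ against WT was 1 with DESeq2 and 0 to 1 with a library left out, and between the mutants 0 to 1 with a library left out. In *ecl123*Δ against WT, leaving out a library gave 0 to 1 calls among the Mei2 regulators, 0 to 2 among the other Mmi1 targets, 0 to 1 among cohesin and recombination genes and 0 to 2 among middle meiosis and spore genes. DESeq2 called 3 other Mmi1 targets, 1 cohesin and recombination gene, 1 bouquet gene and 3 middle meiosis genes, and the fit of only the strains compared called 2, 1, 0 and 2 of these. Over all genes in that comparison, 36 were lower and 38 higher in the edgeR fit, 265 and 286 with DESeq2 and 219 and 113 with only the strains compared. With a library left out, 0 to 277 of all genes were lower and 2 to 173 higher there. Between the mutants 0 to 12 were lower and 2 to 68 higher with a library left out. The cause was not tested. The replicate number as a block gave 0 members called in each comparison, and 60 lower and 35 higher genes in *ecl123*Δ against WT. Of 9 same-numbered pairs of libraries, 3 correlated above 0.1 (range -0.18 to 0.22), so the numbers were not taken to pair the cultures. Low counts limit *mei3* and *bqt2* most.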
